A study of Mus musculus with 188 samples.

Results

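Castaneus-first bins were defined as the autosomal 50 kb windows in which the Castaneus homolog was called replicated ahead of the 129 homolog in more diploid cells than the reverse. In every bin the number of cells with the Castaneus homolog replicated and the 129 homolog unreplicated was counted, the number of cells with the opposite state was subtracted, and bins with a net count of at least 2 were taken. This rule selected 904 of 46743 autosomal bins with a state, or 1.93%, which covered 45.2 Mb. The same rule in the other direction selected 2009 bins, or 4.3%, called 129-first bins here. The states that chose the bins are given below only as a description, and whether the number of recurrent bins differed from that of independent events was not tested.

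The cells were mouse embryonic stem cells of 2 lines, both grown in N2B27 medium with 2i inhibitors and LIF. F121-9 is a diploid hybrid of the 129 and Castaneus strains, so that sequence variants assign part of its reads to a homolog, and H129-2 is a haploid line of the 129 strain. Single nuclei in S phase were sorted by DNA content, amplified whole and sequenced, and the copy number along the genome gave a replicated or unreplicated state for each bin. Of 188 labelled cells (96 diploid and 86 haploid in S phase, and 6 haploid cells in G1), 63 diploid and 75 haploid S-phase cells had profiles matched to their wells and were analysed. No treatment or genotype differed within a line. The labels name no cultures, so each line stands as 1 sample and no test between lines or sets of bins was made. An SD below is a spread over cells, and line, ploidy and plate cannot be told apart.

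Mammalian chromosomes replicate in large domains whose origins fire at similar times. Gene-rich, open chromatin usually replicates early in S phase, and gene-poor, lamina-associated chromatin replicates late. The homologs of a diploid cell mostly follow the same schedule, but in a given cell one of them can be copied first, either because firing varies from cell to cell or because the homologs differ in sequence or in chromatin state, as at imprinted loci.

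In the deposited states both homologs of a cell start from the same unparsed profile and are set apart only in segments with enough homolog-assigned reads and a strong excess of one homolog. Equal states on the homologs are thus the default of the method, neighbouring bins share a call, and the limit set on the 129 side lay slightly nearer to balance than the one on the Castaneus side. Whether this difference in limits changed the numbers of calls in each direction was not tested, and the read depth behind each call is not known from the files used here. Both limits lay beyond the read ratio that, per the paper, full replication of a single homolog gives in theory. Whether replication alone gave the excess in each call was not tested.

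One pair of cells stood apart before any result. The smoothed profiles of the diploid cells of wells C12 and F11, taken as deviations from the mean of the line, correlated at r = 0.833 over bins, and both cells had replicated a similar part of the genome (57% and 55.1%). The other 1950 pairs had a median r of -0.0182 and reached at most 0.407, apart from the pairs C1 with G3 (0.623) and C5 with F7 (0.541). C1, C5 and F7 had no Castaneus-first bin, so these pairs could share none. Of the 138 Castaneus-first bins of C12, 129 were also Castaneus-first in F11, which is 93.5% of those of C12 and 7.0% of the 1843 of F11. Among the 29 cells with at least 50 Castaneus-first bins, the next closest pair, F11 with F6, shared 37.2% of the smaller set, and the median over 406 pairs was 0. C12 and F11 may therefore not count as independent cells, and results that rest on them are given with and without them.

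The 904 bins formed 92 domains of adjacent bins on 18 chromosomes, with a median length of 400 kb and a range from 50 to 1900 kb. Only 3 domains were a single bin, and 37 domains of at least 10 bins held 604 of the bins. Recurrence was shallow. In 818 bins exactly 2 cells were Castaneus-first, in 64 bins 3 cells, in 12 bins 4 cells and in 10 bins 5 cells, and 12 bins also had a cell of the opposite kind. Of the domains, 75 rested on exactly 2 Castaneus-first cells, 79 peaked at a net count of 2, 11 at 3 and 2 higher. A limit of 3 left 74 bins in 13 domains. Just inside the limit lay 830 bins with a net count of 2, and just outside it 5354 bins with a net count of 1.

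The domain with the highest net count lay on chromosome 15 (mm10, chr15:90150001-92050000, 38 bins) and was the longest of all. It spans Alg10b, an enzyme of N-glycan assembly, Cpne8, Kif21a, a kinesin motor, Abcd2, a peroxisomal fatty acid transporter, CN725425, Slc2a13, a myo-inositol transporter, Lrrk2, a large protein kinase, and Smgc. Its inner 500 kb (chr15:90950001-91450000) was the only stretch with 5 Castaneus-first cells and holds all or part of Kif21a, Abcd2, CN725425 and Slc2a13. The 250 bases before the starts of Kif21a, CN725425 and Slc2a13 are shown from RefSeq (GRCm38.p6), 5′ to 3′ on the strand of the gene. CpG dinucleotides are in capitals. Abcd2 overlaps the stretch as well, but its window is not shown. The Kif21a window lies at chr15:91049952-91050201 (minus strand) and the CN725425 window at chr15:91199196-91199445 (plus strand). The Slc2a13 window, at chr15:91573262-91573511 (minus strand), lies outside the inner 500 kb.
Kif21a: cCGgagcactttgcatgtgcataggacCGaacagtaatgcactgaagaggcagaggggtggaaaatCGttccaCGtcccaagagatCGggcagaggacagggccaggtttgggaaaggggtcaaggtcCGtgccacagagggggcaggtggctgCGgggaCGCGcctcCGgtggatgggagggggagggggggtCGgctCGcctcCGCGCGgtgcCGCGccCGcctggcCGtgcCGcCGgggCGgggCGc
CN725425: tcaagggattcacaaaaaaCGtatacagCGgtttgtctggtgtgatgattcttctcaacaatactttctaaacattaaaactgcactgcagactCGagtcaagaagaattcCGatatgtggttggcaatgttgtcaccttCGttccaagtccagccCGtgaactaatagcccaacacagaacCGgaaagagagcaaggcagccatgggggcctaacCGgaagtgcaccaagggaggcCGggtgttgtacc
Slc2a13: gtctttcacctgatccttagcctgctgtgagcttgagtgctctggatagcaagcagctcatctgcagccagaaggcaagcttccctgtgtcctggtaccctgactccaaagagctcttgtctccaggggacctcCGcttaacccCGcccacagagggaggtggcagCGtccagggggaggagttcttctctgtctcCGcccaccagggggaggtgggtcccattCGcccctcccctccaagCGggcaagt

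These windows differed in composition. The Kif21a window held 23 CpG at 69.6% GC, the CN725425 window 9 CpG at 48% GC and the Slc2a13 window 6 CpG at 61.2% GC. Over 32851 windows of the same length the median was 6 CpG (quartiles 2 and 16), 92.1% held at least 1 and 37.8% held at least 10. The windows of Slc2a13 and CN725425 thus lay near the middle of all windows, and that of Kif21a lay above the upper quartile. No homolog difference within these windows was measured here.

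**Figure D1:**
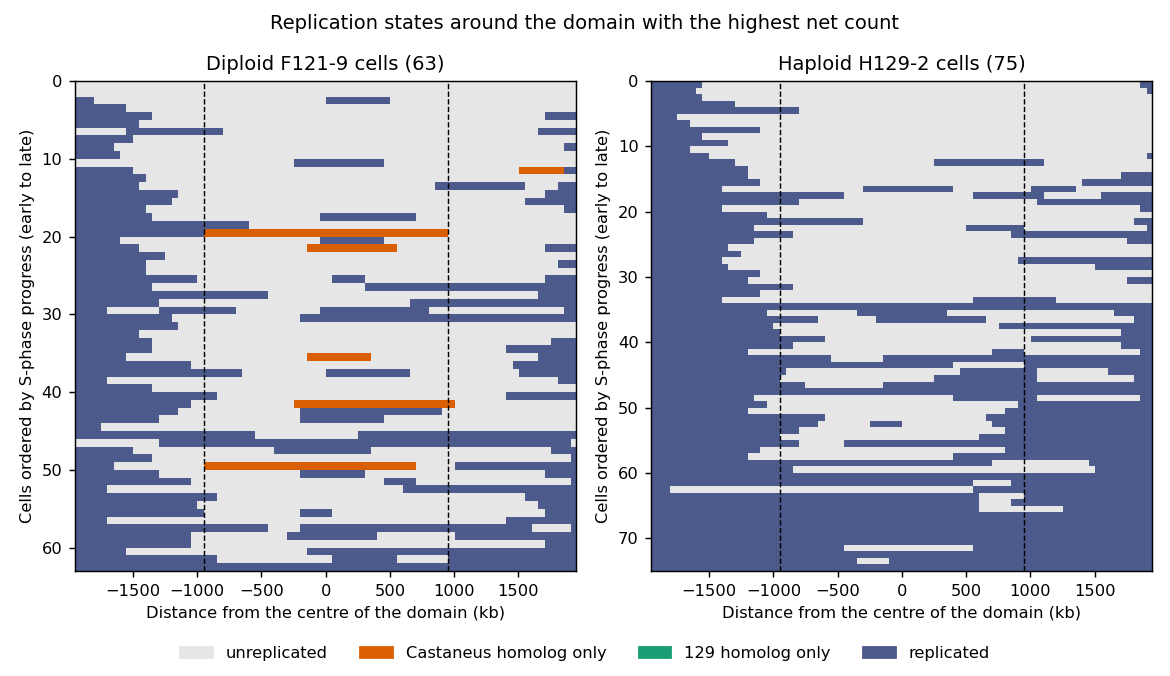
States of 50 kb bins in 63 diploid cells (left) and 75 haploid cells (right) around the chromosome 15 domain, with the distance from its centre in kb on the horizontal axis and cells ordered by the share of the genome replicated on the vertical axis. Dashed lines mark the domain, inside which 5 cells carry a Castaneus-first run (orange) and most others are unreplicated. Cell H7 has a further Castaneus-first run outside the domain, and the window holds no 129-first run.

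The 5 cells over the chromosome 15 domain were all near mid S phase, between 52.6% and 60.3% replicated. The Castaneus-first run of D10 covered the whole 1900 kb, that of G7 1650 kb, that of H4 1250 kb, that of H10 700 kb and that of H6 500 kb. Of the other 58 diploid cells, 49 were unreplicated on both homologs over most of the domain and 8 were replicated on both. The domain was late in the haploid cells, at a median scheduled time of 7.33 h on a 10 h S phase, and 21 of 75 haploid cells, including 1 of the 25 in mid S phase, had replicated most of it. Scheduled time here is the rank of a bin by its mean smoothed score over the cells of a line, spread over 10 h from first to last, and is not a clock time. By these calls the Castaneus homolog of the 5 cells was 1.30 to 2.08 h ahead of the haploid schedule. In 3 of the 5 runs the score before homolog assignment, given next, lay below the unreplicated level of the cell.

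The smoothed score, which comes from the reads before they were assigned to a homolog, did not place all of these runs between the replicated and unreplicated levels. At Castaneus-first bins among the 904, cells with both homologs replicated averaged 0.405 ± 0.119 (SD over cells, n = 63) and cells with both unreplicated averaged -0.710 ± 0.118 (n = 63), on a centered scale without units. In the chromosome 15 domain the score was -0.113 in H10 and -0.148 in H6, between these levels. It was -1.06 in D10, -1.17 in H4 and -1.38 in G7, below the unreplicated level. These 3 runs were the longest in the domain and had the lowest scores of the 5.

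Over all 904 bins the Castaneus-first state had a mean score of -0.325 ± 0.432 (n = 32 cells), nearer to the unreplicated than to the replicated level. On a scale from 0% at the unreplicated mean of the cell to 100% at its replicated mean, the position was 36.6% ± 35.7 (n = 32), and 26 of the 32 cells lay between the levels. Of 1821 Castaneus-first calls with a score in these bins, 66.2% lay between the 2 means of their own cell, 27.1% lay below the unreplicated mean and 6.70% above the replicated mean. Over all 9206 scored Castaneus-first calls on the autosomes, 26.2% lay below it, so the selected bins and the rest showed a similar share. In the 10 leading domains 7 of 34 runs averaged below the unreplicated mean of their cell, in the cells D10, F1, G7, H4 and H8.

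The next leading domain lay on chromosome 13 (chr13:69550001-71050000, 30 bins) and reached a net count of 4 with the cells C12, D10, F11, F5 and G4. It covers Nsun2, an RNA methyltransferase, Srd5a1, a steroid reductase, Ube2ql1, Med10, a Mediator subunit, Ice1 and Adamts16, a secreted metalloprotease. Its peak (chr13:70000001-70400000) overlaps no protein-coding gene. There 13% of bin states were replicated in haploid mid S cells and 41% over all haploid cells, against 65.5% for the Castaneus homolog and 59.1% for the 129 homolog over all diploid cells. The haploid line was scheduled 1.42 h later than the diploid line at the peak and 0.906 h later over the domain. The diploid line was therefore ahead of the haploid line there. The homologs share a profile outside called segments, so this compares the lines and is not separate evidence for each homolog. C12 and F11, the similar pair, both contributed to this domain.

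The remaining 8 of the 10 leading domains peaked at a net count of 3. Of these 8, the chromosome 9 and 6 domains and the one at chr1:112200001-113050000 reached 3 in only 1 bin. The chromosome 13 and 3 domains among them reached it in 2 bins and the others in 4 to 8 bins. The cells named for a domain were Castaneus-first in at least part of it. A second chromosome 13 domain (chr13:29450001-31000000) with Cdkal1, E2f3, Mboat1, Agtr1a, Uqcrfs1, Dusp22, Irf4 and Exoc2 among its genes rested on C12, F11 and G7, so that the similar pair gave 2 of its 3 cells. Its haploid time was 4.52 h and its line difference 0.0747 h. E2f3 encodes a cell-cycle transcription factor, Irf4 a lymphocyte transcription factor and Agtr1a an angiotensin receptor.

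On chromosome 15 a further domain (chr15:35800001-36600000) rested on B5, D10 and F11 and held Vps13b, Cox6c, Rgs22, Fbxo43, Polr2k, Spag1, Rnf19a and Ankrd46. It was early at 4.0 h, and the haploid line was 1.44 h later than the diploid line. Polr2k encodes a subunit shared by the nuclear RNA polymerases and Cox6c a subunit of cytochrome c oxidase. In its flanks of 1 Mb the line difference was also large, at 1.26 h.

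On chromosome 1 a domain with Cops8, Col6a3, Mlph, Prlh, Rab17, Lrrfip1 and Rbm44 (chr1:90500001-91150000) rested on H10, H4 and H7 and showed the largest line difference of the 10, 2.58 h later in the haploid line, at 4.13 h. Cops8 encodes a COP9 signalosome subunit and Col6a3 a collagen chain. The diploid line was ahead of the haploid cells in mid S phase, at 93.3% of states replicated for the Castaneus homolog, 88.2% for the 129 homolog and 61.2% for the haploid line. The flanks differed by 1.78 h.

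A pair of leading domains held no protein-coding gene and were late. The chromosome 3 domain (chr3:111050001-112500000) with the cells B11, H4 and H6 was at 8.42 h and 1.31 h later in the haploid line. The other, on chromosome 1 (chr1:112200001-113050000) with the cells A10, B11 and G7, was at 9.51 h and 1.87 h later, and no haploid mid S cell had replicated most of it. The diploid cells A10, B11 and G7 carried the Castaneus homolog as replicated there 3.48 to 3.81 h ahead of the haploid schedule. B11 did so over all 17 bins of the domain, G7 over 12 and A10 over 6. The diploid line itself was scheduled at 7.68 h there, so the lead of these cells over their own schedule was smaller. In flanks of 1 Mb the line difference was 0.873 h for the chromosome 3 domain and 0.926 h for the chromosome 1 domain. Over all bins it was 1.07 h on chromosome 3 and 0.528 h on chromosome 1.

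The last 3 of the 10 lay on chromosomes 9, 6 and 10. The chromosome 9 domain (chr9:48400001-49500000), with Nxpe4, Rexo2, Rbm7, Gm5617, Nnmt, Zbtb16, Htr3a and Htr3b among its genes, was early at 3.72 h. By their calls its cells F11, F3 and H3 were thus 0.778 to 2.09 h behind the haploid schedule with the 129 homolog lagging. H3 was Castaneus-first at 4 of its 22 bins, and 1 cell was 129-first in part of this domain. Htr3a and Htr3b encode subunits of a serotonin-gated channel. The chromosome 6 domain (chr6:81200001-82150000) with Gcfc2, Mrpl19 and Eva1a was at 7.47 h with the cells G3, H4 and H8. The chromosome 10 domain (chr10:31050001-31800000) with Hddc2, Tpd52l1, Rnf217 and Nkain2 was at 6.63 h with the cells F1, F11 and H6.

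The line difference at the named genes changed along the leading domains. On chromosome 15 the haploid minus diploid time was -0.617 h at Alg10b and -0.615 h at Cpne8, left of the peak. At the peak it was 0.345 h at Kif21a, 0.878 h at Abcd2, 1.08 h at CN725425 and 1.1 h at Slc2a13. To the right it was 0.212 h at Lrrk2 and -0.131 h at Smgc. The line difference in this domain was thus positive where most cells were Castaneus-first and near 0 or negative at both ends, with a median of 0.965 h over the inner 500 kb and 0.00720 h over all 38 bins.

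On chromosome 13 the domain of Nsun2 to Adamts16 crossed from early to late. Haploid time was 4.47 h at Nsun2, 4.94 h at Med10, 6.91 h at Ice1 and 7.53 h at Adamts16, and the haploid line was later at each, by 0.0569 h, 0.778 h, 0.849 h and 0.689 h. On chromosome 1 the line difference was 1.67 h at Cops8, 2.57 h at Col6a3, 2.87 h at Mlph and 3.01 h at Rbm44. On chromosome 15 it was 1.71 h at Polr2k and Fbxo43, which share a bin, and 1.76 h at Spag1.

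Outside the 10, a net count of 3 was reached by a domain at Galnt18 on chromosome 7 (chr7:111400001-111950000, F11, H4 and H6), by one at Xpa and Anp32b on chromosome 4 (chr4:46100001-46500000, B7, H3 and H4) and by one at Ddx18 on chromosome 1 (chr1:121550001-121850000, F11, H10 and H3). Their line differences were -0.386 h, -0.401 h and 0.561 h. These and the domains that follow were picked for mention after their values were seen.

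The domains with a net count of 2 ranged over the whole of S phase. The earliest was a domain with Arid5a and Kansl3 on chromosome 1 (chr1:36050001-36450000, G2 and H4) at 0.105 h, and the latest was one at Fstl5 on chromosome 3 (chr3:76200001-77150000, A5 and B11) at 9.91 h. The domain on chromosome 3 with Lef1, a transcription factor of Wnt signalling (chr3:130950001-131400000, A10 and A2), was 1.89 h later in the haploid line, and the one with Rapgef2 and Fnip2 (chr3:79150001-79600000, A5 and G2) was 2.20 h later. Their flanks of 1 Mb differed by 1.16 h and 0.715 h, and all bins of chromosome 3 by 1.07 h. Domains in the other direction included Btg1 on chromosome 10 (chr10:96400001-96900000, G4 and H6), with a line difference of -1.40 h, and Alk and Wdr43 on chromosome 17 (chr17:71550001-71950000, D10 and H10), with -1.83 h. The flanks of these differed by 0.102 h and -0.739 h. Line differences of single domains thus ran both ways.

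The similar pair C12 and F11 alone made several of the longer domains. On chromosome 13 these were a domain of 1050 kb with Vps41 and Amph (chr13:18500001-19550000), one of 900 kb with Jarid2, a partner of the Polycomb complex (chr13:44350001-45250000), and one of 750 kb with Phactr1 and Sirt5 (chr13:42900001-43650000). On chromosome 3 it was a domain of 700 kb with Gclm and F3 (chr3:121600001-122300000). With either cell left out none of these bins met the rule.

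Few cells carried most of the calls. Of the 63 diploid cells, 36 had any Castaneus-first bin on the autosomes, 32 were Castaneus-first at 1 or more of the 904 bins and 18 had no asynchronous bin. F11 was Castaneus-first at 380 bins (42%) in 34 domains, H4 at 194, D10 at 180, H6 at 166 and C12 at 123. At least 1 of F11, H4, D10 and H6 was Castaneus-first at 705 bins, or 78%. These cells also had the most Castaneus-first bins over all autosomes, from 827 in H4 to 1843 in F11. Of their own Castaneus-first bins, 13.8% (D10) to 23.5% (H4) were among the 904. Their weight was therefore not particular to the selected bins. Without F11, 601 bins in 70 domains met the rule, and without any other single cell between 768 and 921, since leaving out a cell with 129-first bins can raise the net count.

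The cells with many Castaneus-first bins also had many 129-first bins. F11 had 1843 Castaneus-first and 2129 129-first bins, D10 1302 and 1476, H6 858 and 899, and H4 827 and 1899. In 27 of the 32 cells the 129-first bins were more numerous, with medians of 229.5 and 150.5. The share of the genome replicated did not separate these cells from the other 31, with medians of 56.4% and 56.6%. Plate row H held 7 of the 63 cells (11.1%) and gave 32.5% of 1926 Castaneus-first calls in the 904 bins. These 7 cells had 202 to 858 Castaneus-first bins each over all autosomes, all above the median of 150.5. Row H was thus rich in Castaneus-first calls over the autosomes as a whole, and not only in the 904 bins. The part of well position in these calls was not tested.

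**Figure D2:**
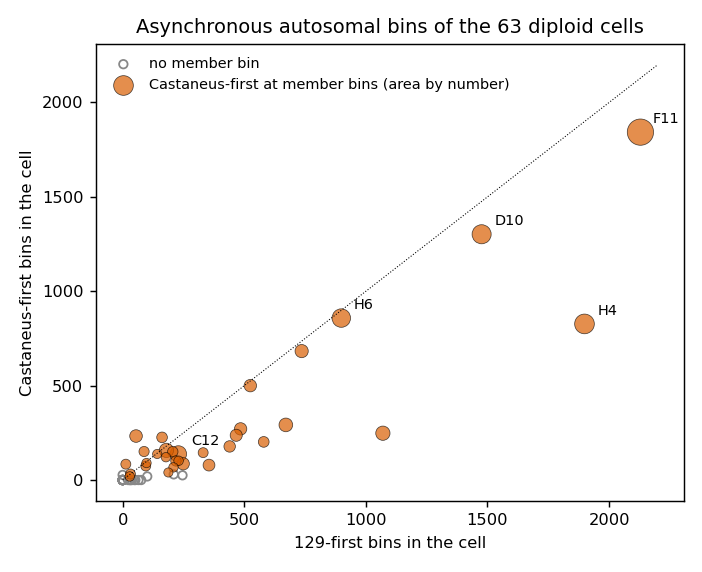
Castaneus-first bins (vertical axis, number of bins) against 129-first bins (horizontal axis, number of bins) in each of the 63 diploid cells, with filled points for the 32 cells that were Castaneus-first at any of the 904 bins and area by the number of those bins. The dotted line marks equal numbers, and F11, D10, H6 and H4 are the cells with the most Castaneus-first bins.

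Across domains, 86 pairs of cells occurred together, 60 of them in 1 domain only. C12 with F11 and D10 with F11 each occurred together in 9 domains, and F11 with H4 and H4 with H6 each in 5. Unlike C12 and F11, the profiles of D10 and F11 were nearly uncorrelated (r = 0.0899), and their 99 shared bins were 7.60% of those of D10 and 5.37% of those of F11.

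The 904 bins were unevenly spread over chromosomes. Chromosome 13 held 186 bins (8.30% of its bins) in 14 domains, chromosome 3 held 143 (4.62%) in 11, chromosome 9 held 72 (2.98%) in 8, and chromosome 11 held none. Chromosomes 13, 3 and 9 held 44.4% of Castaneus-first bins and 16.6% of all bins. On chromosome 13, 109 of the 186 bins had both C12 and F11. Without C12 that chromosome held 91 bins, without F11 74 bins and without both 67 bins, and the total was then 795, 601 and 594.

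C12 also had most of its asynchrony there, with 122 of its 138 Castaneus-first bins on chromosome 13 and 10 of its 229 129-first bins. Over all 63 cells chromosome 13 had 830 Castaneus-first and 636 129-first calls, chromosome 3 had 863 and 860, chromosome 15 had 752 and 750, and on the other 16 autosomes 129-first calls were more numerous. The excess on chromosome 13 rested on the similar pair, since it had 708 and 626 calls without C12, 543 and 505 without F11, and 421 and 495 without both. Without F11 chromosome 15 had 512 Castaneus-first and 730 129-first calls and chromosome 3 had 804 and 805. Without both cells 129-first calls were more numerous on 18 of the 19 autosomes, the exception being chromosome 6 with 548 and 525. Whether a difference in copy number between homologs moves with these counts was not tested.

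**Figure D3:**
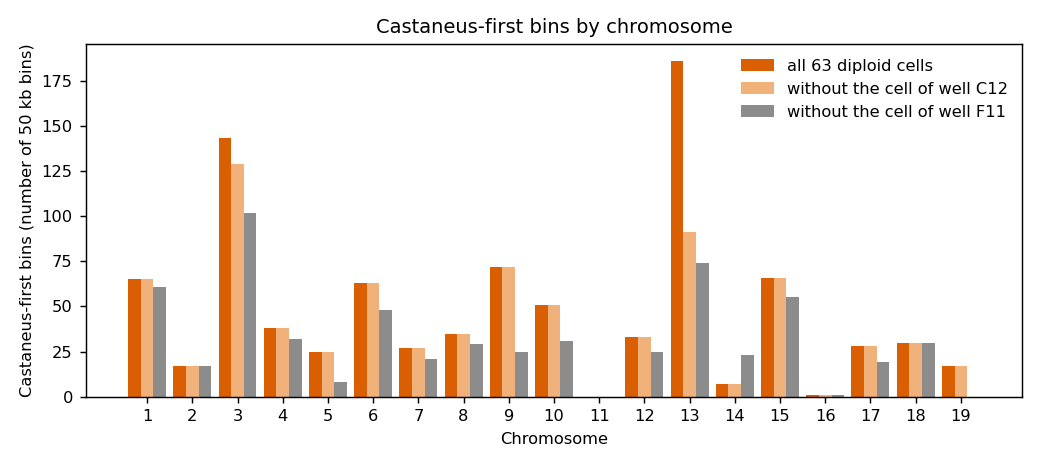
Number of Castaneus-first bins (50 kb) on each autosome from all 63 diploid cells, without the cell of well C12 and without the cell of well F11. The bar of chromosome 13 falls from 186 to 91 without C12 and 74 without F11, and that of chromosome 9 from 72 to 25 without F11.

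In the haploid 129 line, whose cells were not used to choose the bins, the Castaneus-first bins lay mostly in the middle of S phase, with a median after its midpoint. Their median time was 5.82 h (quartiles 3.57 and 7.50, 887 bins with enough scores) against 5.0 h (2.50 and 7.50) for all bins and 5.2 h for 129-first bins. They were sparse at the start of S phase, with 9.02% in the first 2 h against 20% of all bins, 72.8% lay between 2 and 8 h against 60%, and 18.2% lay in the last 2 h against 20%. By hour, 0.776% of all bins in the first hour were Castaneus-first, 2.95% between 6 and 7 h, 2.81% between 7 and 8 h, 1.68% between 8 and 9 h and 1.88% in the last hour.

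The time was later with a higher net count, from 5.19 h at a net count of 1 to 5.69 h at 2 and 6.66 h at 3 or more, a group of 73 scored bins in 13 domains. Counting each domain once gave 5.46 h, and domains ranged from 0.105 to 9.91 h. The median was 6.13 h for members chosen without F11 and 6.17 h without 1 cell of each similar pair. Of the calls themselves, 55.3% were made in cells that had progressed less than the haploid time of the bin, against 47.1% of all Castaneus-first calls and 45.9% of all bins in all diploid cells, with a median lead of 0.424 h over 1891 calls with a scheduled time. Within 1 h of that time lay 24.3% of them and beyond 3 h lay 25%, against 23.9% and 33.6% of all Castaneus-first calls and 20% and 40.5% of all bins in all diploid cells.

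The haploid cells themselves had replicated less of these bins than of the genome. They held 54.8% ± 20.8 replicated states at Castaneus-first bins (SD, n = 75 cells, lowest 13.1%, median 56.2%, highest 91.6%) against 61.1% ± 16.9 over all bins. Within cells the difference was -6.37 ± 4.88 percentage points, lower in 65 of 75 cells. It was -12.6 ± 2.93 in the 11 cells under 40% replicated, -8.44 ± 3.29 in the 25 cells from 40% to 60%, and -3.29 ± 3.69 in the 39 cells above 60%, with 29 of them lower. The 129-first bins differed by -1.82 ± 2.77 points, lower in 53 cells, and the Castaneus-first value was below the 129-first value in 64 of 75 cells.

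**Figure D4:**
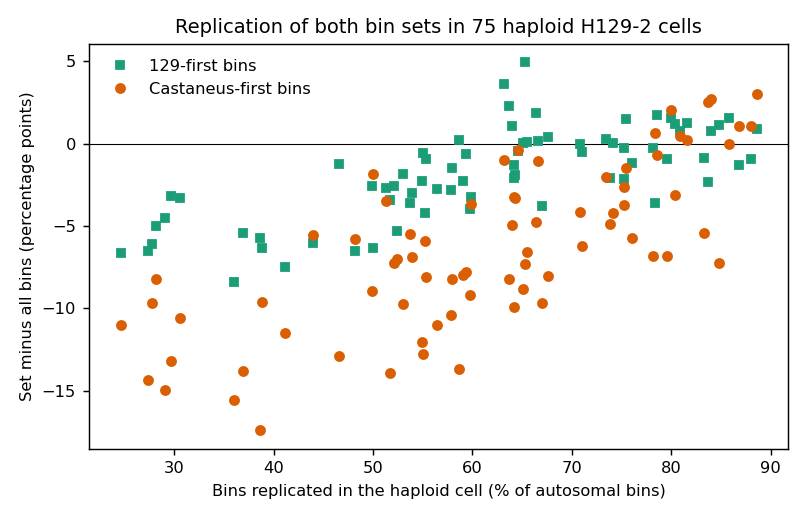
Percentage of replicated bins in a set minus that over all autosomal bins (vertical axis, percentage points) against the percentage replicated over all bins (horizontal axis) for each of 75 haploid cells, for Castaneus-first bins (circles) and 129-first bins (squares). Castaneus-first bins lie below 0 in 65 cells and 129-first bins in 53.

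The size differed between rows of the haploid plate. Row medians ran from -12.9 points in row A (11 cells) to -5.67 in row F (12 cells), while row G had 1.06 (8 cells, 3 lower). The rows also differed in S-phase progress. Row A cells were 27.4% to 46.6% replicated. Row G cells were 78.6% to 88.6% replicated, apart from G8 at 24.6%, which had -11.0 points. The parts of row and S-phase progress in this were not separated. The 31 diploid cells with no asynchronous call in the 904 bins also had less of them replicated than of all bins, by -3.47 ± 4.58 points, lower in 24 of 31 cells. A lower value at these bins was therefore found in cells of both lines.

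The haploid line was scheduled later than the diploid line at the Castaneus-first bins. The median difference, haploid minus diploid, was 0.385 h (quartiles -0.321 and 0.991) against -0.00898 h over all bins and -0.0816 h at 129-first bins. The haploid time was at least 1 h later at 220 of 887 bins (24.8%), where 14.7% of all bins and 12.5% of 129-first bins were that much later. It was at least 1 h earlier at 60 bins (6.76%), against 14.6% of all bins. The median difference over bins grew with the net count, from 0.114 h at 1 to 0.345 h at 2 and 0.985 h at 3 or more. The last group was 73 scored bins in only 13 domains, and 27 of its 74 bins lay on chromosome 15 and 19 on chromosome 13. Taken as whole domains, these 13 ran from -0.401 h to 2.58 h, with 0.00720 h in the leading domain. The values by net count were not set against chromosome medians. Leaving the asynchronous diploid cells out of the diploid mean of each bin gave 0.402 h.

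**Figure D5:**
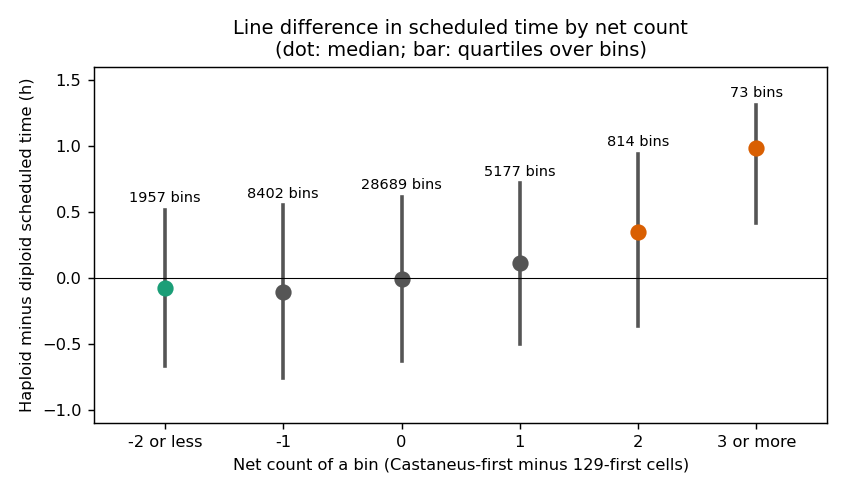
Haploid minus diploid scheduled time (vertical axis, h) for bins grouped by net count (horizontal axis, Castaneus-first minus 129-first cells), with the median as a dot and quartiles over bins as a bar. Medians are -0.0816 h at -2 or less, -0.111 h at -1, -0.0115 h at 0, 0.114 h at 1, 0.345 h at 2 and 0.985 h at 3 or more, and the quartile bars overlap. The group at 3 or more is 73 scored bins in 13 domains.

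This difference was not evenly spread. Chromosomes differed between the lines as wholes, with median differences over all bins from -1.53 h on chromosome 11 to 1.07 h on chromosome 3, and Castaneus-first bins were frequent on chromosome 3. Of the 220 bins at least 1 h later in the haploid line, 84 lay on chromosome 3, 45 on chromosome 13 and 35 on chromosome 1. On those 3 chromosomes the median at Castaneus-first bins was 0.870 h against 0.579 h for all bins there. Off them, the 505 scored bins had a median of -0.0131 h against -0.142 h for all bins, and 11.1% of them were at least 1 h later against 10.2% of all bins. That split was made after the values were seen.

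Set against the median of their own chromosome, Castaneus-first bins were 0.195 h later and 61% of them lay above it, as did 45.9% of 129-first bins. On 11 of 18 chromosomes the members were later than the chromosome, by most on chromosome 1 (1.66 h against 0.528 h) and also on chromosome 13 (0.440 h against -0.101 h). Chromosome 14, with 7 bins, went the other way (-0.709 h against 0.591 h). By domain, 56 of 92 were later in the haploid line, 17 by at least 1 h, and 6 were earlier by at least 1 h. The median over domains was 0.228 h against 0.137 h in their flanks of 1 Mb on each side, and 50 of 92 domains exceeded their flanks. The line difference thus extended beyond the bins that were chosen.

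The mid S cells show the same values as shares. At the Castaneus-first bins 45.1% of states were replicated in the 25 haploid cells between 40% and 60% replicated, 47.1% on the 129 homolog and 51.3% on the Castaneus homolog of the 45 diploid cells in that range. Over all bins these were 53.3%, 53.3% and 53.1%. The gap between the homologs was fixed by the choice of bins. The 129 homolog in the hybrid lay above the haploid 129 line, and both were below the average of the genome. Outside called segments the 129 states copy the unparsed diploid profile, so they are not a separate reading of that homolog.

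The sequence of the bins was close to that of the genome. Median GC content was 41.4% for Castaneus-first bins and 41.4% for all bins, and repeat-masked sequence was 30% against 31%. Protein-coding gene starts were sparser, at 6.17 per Mb against 8.58 over all bins and 6.81 at 129-first bins, and 54.2% of bins touched a protein-coding gene against 58.3%. A point where the haploid schedule crosses 5 h lay within 250 kb of 20.1% of these bins and of 19.2% of all bins.

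Of 20070 protein-coding genes with a bin, 317 (1.58%) overlapped a Castaneus-first bin, while 769 (3.83%) overlapped a 129-first bin. None of 43 imprinted genes, 18 pluripotency genes and 25 genes of origin licensing and DNA synthesis overlapped a Castaneus-first bin.

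Among clustered families, 0 of 1115 olfactory receptor, 0 of 67 protocadherin and 0 of 198 immunoglobulin V genes were in Castaneus-first bins, as were 2 of 364 zinc finger genes named Zfp. Vomeronasal receptors, which detect pheromones, had 15 of 227 (6.61%). All 15 were Vmn1r genes of 1 domain on chromosome 6 (chr6:57000001-57450000), Castaneus-first in the cells E1 and H8. That domain was at 6.65 h in the haploid line, with a line difference of -0.531 h, so the family count was that of a single domain in 2 cells. Of all domains, 18 held no protein-coding gene.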

How the data were processed

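Per the labels and the methods of the study, the authors mapped reads to mm10 (Bowtie2, SAMtools and bedtools are named in the submitters' processing notes), removed duplicates, counted them in 50 kb windows, scaled, corrected by G1 and G2 cells, centered and smoothed them. The deposited smoothed values are scores without units, and the deposited states are 0 or 1 for each bin and, in diploid cells, each homolog. Reads per cell are not given in the files used here, so no counting interval can be set. Columns of 8 diploid cells without a labelled well (24 columns) were not used, and 44 labelled S-phase cells have no column used here.

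Net counts, domains and schedules were computed in Python 3.11.15 (numpy 2.4.6, pandas 2.3.3) and checked on simulated data with planted domains and time shifts. Schedules are ranks of the mean score over 45112 bins with a score in 50% or more of haploid and of diploid cells, and 17 of the 904 bins lacked one. Genes are from GENCODE M21, and bins were taken to GRCm38.p6 for sequence. Genes are named for the 10 domains with the highest net count, at most 8 for each in genomic order. The bins and gene lists were chosen with earlier results of these data known. No test was run, because each sample is 1 cell and no culture is named.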

Additional observations from a re-analysis of the deposited data

How the results depend on the processing

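Of 41 alternatives for 7 results, 27 left the value within its limit (0.1 h for a time, 1 percentage point for GC content, 1.5 times for a count, otherwise 1 SD over cells), 13 moved it and 1 reversed its sign. The SD limits were wide, at 20.8 percentage points for haploid replicated states and 0.432 for the score. The first is larger in size than the within-cell difference of -6.37 points. All alternatives of these results stayed within the limits, which says little about how stable they are. A net count of 3 or more gave 74 bins, 13 domains, a scheduled time of 6.66 h, a line difference of 0.985 h and a GC content of 42.9%. Without the cell with the most Castaneus-first bins (F11), 601 bins remained and the scheduled time was 6.13 h. Each domain counted once gave 5.46 h and a line difference of 0.228 h. The scheduled time was 5.61 h on the diploid schedule and 5.01 h on a linear scale of the score. Centering every chromosome of a cell first gave a line difference of 0.235 h. The next values come from alternatives chosen after seeing the data. With 1 cell of each similar pair left out the scheduled time was 6.17 h. Off chromosomes 1, 3 and 13 the line difference changed sign to -0.0131 h, a value near 0 and still above the -0.142 h of all bins there. The causes of these changes were not tested. No paired analysis was possible because a shared well name ties no haploid cell to a diploid one.

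The depth of each cell, the number of homolog-assigned reads behind a call and the number of independent cultures limit all values.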
